A study of Mus musculus with 6 samples.

Results

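The 10 genes described here encode the enzymes and helper proteins of de novo fatty acid synthesis, the route from citrate to a monounsaturated fatty acid. They were chosen by symbol, and all 10 were found among the 39179 gene identifiers of each count file. Liver RNA was sequenced from C57BL/6J mice (strain label C57BL/6) given a high-fat diet, in which fat supplied 60% of the energy, for 21 weeks from 5 weeks of age. All mice shared this diet, and the obese ones were sorted on stained liver sections (haematoxylin and eosin) as isolated steatosis (3 libraries) or as nonalcoholic steatohepatitis, NASH (3 libraries). The labels name no transgene and no drug. Livers of mice on a control diet are not part of the comparison, and no source used here gives the sex of the mice. The labels do not say outright that each library is a separate mouse, so p-values measure the spread between these libraries, which may be technical.

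In the cytosol of a hepatocyte, citrate exported from the mitochondria is cut to acetyl-CoA, which is carboxylated to malonyl-CoA and built into palmitate at the cost of NADPH. Palmitate is then elongated to stearate and desaturated to oleate, a main fatty acid of stored triglyceride. The transcription factors SREBP-1c, encoded by Srebf1, and ChREBP, encoded by Mlxipl, are known to raise the genes of this route after feeding, under insulin and sugar respectively.

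Of the 10 genes 7 rose in NASH and 0 fell at a Benjamini-Hochberg adjusted p under 0.05 over the 11375 genes tested, with the quasi-likelihood test of edgeR. Among all genes tested, 1.49% rose and 3.33% fell by the same rule, which is 169 and 379 genes, or 179 and 222 when libraries were scaled to the counts outside mitochondrial genes and rRNA-like loci. DESeq2 called 9 of the 10 higher and 0 lower, as did an unadjusted p under 0.05 by edgeR. Over all genes DESeq2 called 297 higher and 554 lower of 19790 with a p-value. The 19790 can include genes to which DESeq2 gave no adjusted p and which could not be called. An unadjusted p under 0.05 by edgeR was found for at least 2465 of the 11375 genes tested, in either direction. This is the rank by p of the lipogenic regulator Mlx (unadjusted p by edgeR = 0.0436), and it is the background for every count by that rule below. The largest rises were those of Fasn, the fatty acid synthase, at 10.7-fold (95% interval 5.55 to 20.6), and Acly, the ATP citrate lyase, at 6.27-fold (4.17 to 9.42). Acacb, Acaca, Scd1, Acss2 and Slc25a1 rose by 4.04-fold, 3.39-fold, 2.69-fold, 2.59-fold and 1.73-fold. Elovl6 and Thrsp had higher means in NASH without passing, and Me1, the cytosolic malic enzyme, had a lower mean without passing. A log2 fold change above 0 was found for 9 of the 10 genes, against 50.6% of all genes tested, and their median was 1.48, against 0.01 over all genes tested. The NASH and steatosis libraries did not overlap for 8 of the 10, with NASH higher, which was so for 13.1% of all genes tested. The genes were named with earlier results of these data known, so these counts describe the list and do not test it. When whole liver is sequenced, more RNA per cell and more cells of a type cannot be told apart.

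The promoter sequences of 3 genes that rose, Fasn, Acly and Slc25a1, and of Me1, which did not, are shown because they let the start regions of genes at both ends of the response be read side by side. They are from RefSeq on GRCm38.p6, written 5′ to 3′ on the strand of the gene, and end at the last base that no annotated exon covers. Capitals mark matches on either strand to any of 5 motifs. These were TCACNCCAC (a core of the sterol regulatory element that SREBP binds), CACGTG (an E-box), CCAAT (the NF-Y box), GGGCGG (a GC box bound by Sp1) and AGGTCA (a half-site of nuclear receptors). Overlapping matches were all counted.
Fasn, chr11:120824548-120824797, minus strand: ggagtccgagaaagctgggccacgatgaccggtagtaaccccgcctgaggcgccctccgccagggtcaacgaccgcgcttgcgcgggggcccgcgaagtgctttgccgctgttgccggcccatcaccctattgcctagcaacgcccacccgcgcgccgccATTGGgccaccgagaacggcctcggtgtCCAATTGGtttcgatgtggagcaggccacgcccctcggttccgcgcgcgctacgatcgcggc
Acly, chr11:100528001-100528250, minus strand: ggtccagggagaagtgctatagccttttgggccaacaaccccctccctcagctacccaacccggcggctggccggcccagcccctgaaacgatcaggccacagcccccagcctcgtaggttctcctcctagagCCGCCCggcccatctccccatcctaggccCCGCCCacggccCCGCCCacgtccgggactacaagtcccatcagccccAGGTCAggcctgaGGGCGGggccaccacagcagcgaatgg
Slc25a1, chr16:17928220-17928469, minus strand: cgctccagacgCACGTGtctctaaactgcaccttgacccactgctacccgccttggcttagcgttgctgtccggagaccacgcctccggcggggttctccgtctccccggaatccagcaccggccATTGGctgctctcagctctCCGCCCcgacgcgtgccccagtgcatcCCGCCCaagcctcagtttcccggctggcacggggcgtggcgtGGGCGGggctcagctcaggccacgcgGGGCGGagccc
Me1, chr9:86695954-86696164, minus strand: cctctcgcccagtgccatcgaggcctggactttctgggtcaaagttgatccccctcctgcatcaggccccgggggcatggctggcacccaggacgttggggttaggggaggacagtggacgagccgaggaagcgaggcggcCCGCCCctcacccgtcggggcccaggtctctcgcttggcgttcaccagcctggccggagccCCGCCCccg

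Windows of 250 bases before the RefSeq start were matched for 9 of the 10 genes. Me1 has 2 RefSeq starts, and the one nearest the 5′ end of the gene was used. The CCAAT box was found in 5 of the 9, namely Slc25a1, Acss2, Acacb, Fasn and Thrsp, and in 33.8% of 32817 windows of the same length. The CCAAT matches of Acss2 and Thrsp lie inside the gene as GENCODE annotates it, which takes in the last 95 and 180 bases of these windows. Fasn held 3 CCAAT matches, starting 90, 62 and 59 bases before its start, of which the last 2 overlap each other. The GC box was found in Slc25a1, Acly, Acss2 and Me1, and in 32.7% of all windows. The AGGTCA half-site was found in Acly and Elovl6, and in 14% of all windows. The E-box was found in Slc25a1 alone among the 9, and in 6.02% of all windows. The TCACNCCAC letters were in 0 of the 9 windows and in 1.05% of all windows, which says only that these letters are not in these stretches. For Acaca and Acacb the RefSeq window lies inside the gene as GENCODE annotates it, downstream of its 5′ end, so it need not be the start used in liver. These matches are descriptions of sequence and were not tied to the expression values.

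Levels below are read counts relative to library size, in CPM, on a library size scaled by the TMM method of edgeR, which sets libraries on a common scale through genes that differ little. Counts of the 10 genes ran from 59 reads (Me1 in NASH 3) to 9142 reads (Scd1 in NASH 1), and all 10 passed the filter on low counts. Libraries held between 13909238 and 18002095 counts. Mitochondrially encoded genes took 68.3% to 77.9% of the steatosis counts and 62.0% to 83.9% of the NASH counts. Reads at 4 rRNA-like loci took 22.3% of NASH 3 and 8.96% of steatosis 2, against 0.596% to 1.06% of the others. The remaining counts made up 21.3%, 22.7% and 28.6% of the steatosis libraries and 17.2%, 15.5% and 15.7% of the NASH libraries. This share did not overlap between the groups, and neither did the TMM factors, both being lower in NASH. Library composition thus differed along with the group. Beyond the alternative scaling to these remaining counts, its bearing on the results was not tested. Hepatocyte markers, with albumin among them, summed to 11144 to 12241 CPM in steatosis and 9269 to 11364 CPM in NASH. Adipose tissue also makes these enzymes. Of the adipocyte markers, Adipoq, Lep and Plin1 had 0 counts in all 6 libraries, while Cfd had 129 to 2056 counts, Adrb3 240 to 409 and Lipe 153 to 277. All 10 adipocyte markers together summed to 72.9 to 186 CPM in steatosis and 57.9 to 93.7 CPM in NASH, and 0 of the 6 tested passed by edgeR or DESeq2, with 3 of them (Pparg, Cidea and Cfd) lower at an unadjusted p under 0.05. Endothelial markers summed to 86.2 to 107 CPM in steatosis and 115 to 165 CPM in NASH, and stellate cell markers to 68.7 to 81.1 and 45.7 to 63.5 CPM. The part of these shifts in the results was not tested. The sums of macrophage, lymphocyte, cholangiocyte and pancreas markers overlapped between the groups. Among all these markers edgeR called Cyp3a11 of hepatocytes and Dcn of stellate cells, both lower in NASH. DESeq2 called these and also Ass1 of hepatocytes and Stab1 of endothelium, both higher. At an unadjusted p under 0.05 by edgeR, 4 of 10 endothelial markers were higher (Pecam1, Fcgr2b, Stab1 and Clec4g) and 0 lower. That rule was met by at least 2465 of the 11375 genes tested.

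**Figure D1:**
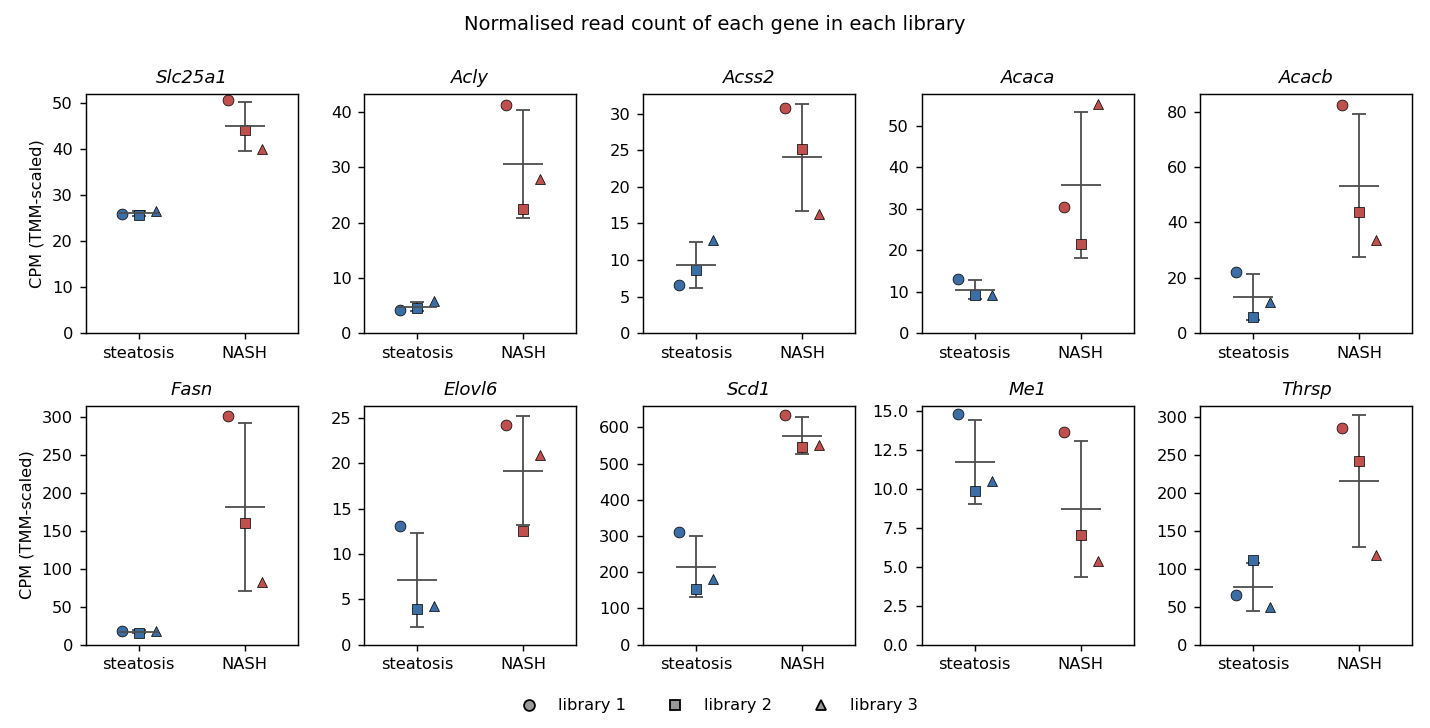
Normalised read count (CPM, linear axis from 0) of each of the 10 genes in the 3 steatosis (blue) and 3 NASH (red) libraries, with the group mean and SD as a bar. The marker shape gives the library number, which was not shown to pair mice across groups. The groups are apart for 8 genes and overlap for Elovl6 and Me1.

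Acetyl-CoA supply was the first step examined. Slc25a1, the citrate carrier of the inner mitochondrial membrane, stands on chromosome 16 (GRCm38, 17925223 to 17928219). It measured 25.8, 25.6 and 26.6 CPM in steatosis and 50.6, 44.2 and 39.9 CPM in NASH. The steatosis values hardly spread, and every NASH value lay above them. The fitted log2 change was 0.79 (standard error 0.19, adjusted p by edgeR = 0.0458), the smallest of the 7 rises, and the call was lost when any 1 of the 6 libraries was left out (adjusted p by edgeR = 0.0669 to 0.163).

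Acly, which cuts citrate into acetyl-CoA and oxaloacetate, lies on chromosome 11 (100476353 to 100528000). It measured 4.19, 4.49 and 5.82 CPM in steatosis and 41.3, 22.4 and 27.9 CPM in NASH. The lowest NASH library stood 3.84-fold above the highest steatosis library. Its fitted log2 change was 2.65 (standard error 0.27, adjusted p by edgeR = 0.00275), and the call held with each library left out in turn (adjusted p by edgeR = 0.0016 to 0.014). By its p-value Acly was the fourth of the genes tested.

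Acss2, the cytosolic acetyl-CoA synthetase that makes acetyl-CoA from acetate instead of citrate, lies on chromosome 2 (155517948 to 155585724). It measured 6.53, 8.63 and 12.7 CPM in steatosis and 30.8, 25.1 and 16.3 CPM in NASH. Steatosis 3 and NASH 3 came closest to each other, at a ratio of 1.28. On the log2 scale the change was 1.37 (standard error 0.29, adjusted p by edgeR = 0.0307). The call was lost without steatosis 1, steatosis 2, NASH 1 or NASH 2 (adjusted p by edgeR = 0.106, 0.113, 0.0868 and 0.0735). Its exons share positions with Gss, Acss2os and Ggt7 on the opposite strand, over 3.89%, 3.30% and 1.94% of its exon length, and the strand setting of the counting is not given. Within a library the ratio of Acss2 to Acly counts per kilobase of exon was 0.810, 0.997 and 1.13 in steatosis and 0.388, 0.583 and 0.303 in NASH. Acss2 stood lower relative to Acly in all 3 NASH libraries, and the difference in the log2 ratio was -1.24 (exact permutation p = 0.1, two-sided, the smallest that 3 against 3 can give, or 0.2 after adjustment over 6 ratios).

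The acetyl-CoA carboxylases make malonyl-CoA and come as a pair. Acaca encodes the cytosolic enzyme that feeds synthesis, and Acacb the enzyme at the mitochondrial outer membrane, whose malonyl-CoA restrains entry of fatty acids for oxidation. Acaca (chromosome 11, 84129672 to 84401651) measured 13.1, 9.29 and 9.24 CPM in steatosis and 30.4, 21.4 and 55.2 CPM in NASH. Acacb (chromosome 5, 114146535 to 114250761) measured 22.3, 6.05 and 11.2 CPM in steatosis and 82.4, 43.9 and 33.6 CPM in NASH. Neither gene overlapped between the groups, but the libraries ranked differently, since NASH 3 was the highest of the NASH libraries for Acaca and the lowest for Acacb.

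Acaca rose by 1.76 (standard error 0.33, adjusted p by edgeR = 0.0183) and Acacb by 2.02 (standard error 0.46, adjusted p by edgeR = 0.0371) on the log2 scale. The Acaca call was lost without steatosis 1 or steatosis 2 (adjusted p by edgeR = 0.0543 and 0.0875), and its log2 fold change was 1.31 without NASH 3. The Acacb call was lost without steatosis 2, steatosis 3, NASH 1 or NASH 2 (adjusted p by edgeR = 0.109, 0.0759, 0.103 and 0.0694). Its log2 fold change was 2.63 without steatosis 1, where the gene stood highest among the steatosis libraries. The ratio of Acaca to Acacb within a library, per kilobase of exon, was 0.33, 0.866 and 0.464 in steatosis and 0.208, 0.276 and 0.927 in NASH. These ratios overlapped, and no difference between the carboxylases was shown (difference in log2 ratio -0.44, exact permutation p adjusted over the 6 ratios = 0.72). That difference was -0.01 without NASH 1 and -1.09 without NASH 3.

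Fasn joins malonyl-CoA units into palmitate and lies on chromosome 11 (120805846 to 120824547). It measured 17.9, 14.9 and 18 CPM in steatosis and 301, 160 and 82.3 CPM in NASH. The steatosis values were tight, with a coefficient of variation of 10.5%, while those of NASH spread by 61.2%. Its log2 fold change was 3.42 (standard error 0.43, adjusted p by edgeR = 0.00423), and the lowest NASH library still stood 4.59-fold above the highest steatosis library. The call held with each library left out in turn, with a log2 fold change of 2.84 to 3.78 (adjusted p by edgeR = 0.00114 to 0.0296). Without steatosis 2 and NASH 3, the libraries with most rRNA-like reads, it was 3.68 (adjusted p by edgeR = 0.0158), and that of Acly was 2.66 (adjusted p by edgeR = 0.0317).

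Elovl6, the elongase that turns palmitate into stearate, lies on chromosome 3 (129532355 to 129638495). It measured 13.1, 3.96 and 4.27 CPM in steatosis and 24.2, 12.5 and 20.9 CPM in NASH. The groups overlapped because steatosis 1 lay just above NASH 2. The log2 fold change of 1.45 (95% interval 0.49 to 2.41) did not pass (adjusted p by edgeR = 0.0826), and without steatosis 1 it was 2.23 and passed (adjusted p by edgeR = 0.0215). DESeq2 also called it (adjusted p = 0.0152).

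Scd1, the stearoyl-CoA desaturase that makes oleate, lies on chromosome 19 (44394455 to 44407879). It measured 310, 153 and 181 CPM in steatosis and 635, 546 and 550 CPM in NASH. Steatosis 1 was again the highest of its group, and the NASH libraries stood close together. The fitted log2 change was 1.43 (standard error 0.30, adjusted p by edgeR = 0.0288). The call passed without steatosis 1 (adjusted p by edgeR = 0.0243), and was lost without any 1 of the other libraries (adjusted p by edgeR = 0.0553 to 0.127). Close copies of the gene lie beside it, and how reads shared between copies were counted is not given, so its level carries that uncertainty.

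Me1 makes NADPH from malate and so supplies the reducing power of the route. It lies on chromosome 9 (86581371 to 86695953). It measured 14.8, 9.83 and 10.5 CPM in steatosis and 13.6, 7.03 and 5.36 CPM in NASH. NASH 1 lay within the steatosis range and the other NASH libraries below it. Its fitted log2 change was -0.42 with a 95% interval of -1.13 to 0.29 (adjusted p by edgeR = 0.472), which excludes a rise as large as that of any of the 7 genes that passed, and it stayed below 0 in all 15 alternative fits. The ratio of Me1 to Slc25a1 counts per kilobase within a library was 0.322, 0.216 and 0.221 in steatosis and 0.151, 0.0895 and 0.0756 in NASH. It did not overlap between the groups, with a difference in log2 ratio of -1.30 (exact permutation p = 0.1, the smallest possible, and 0.2 after adjustment).

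Thrsp encodes Spot 14, a small nuclear and cytosolic protein that promotes lipogenesis and binds the carboxylase activator Mid1ip1. It lies on chromosome 7 (97412938 to 97417730). It measured 65.5, 111 and 49.6 CPM in steatosis and 285, 242 and 118 CPM in NASH. NASH 3 stood barely above steatosis 2, at a ratio of 1.07. The log2 fold change of 1.51 (standard error 0.38) missed the threshold (adjusted p by edgeR = 0.0514), and without NASH 3 it was 1.81 and passed (adjusted p by edgeR = 0.0371). With upper-quartile scaling it passed as well (adjusted p by edgeR = 0.0486), as it did with scaling to the counts outside mitochondrial genes and rRNA-like loci (0.0461), and DESeq2 called it (0.000741).

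**Figure D2:**
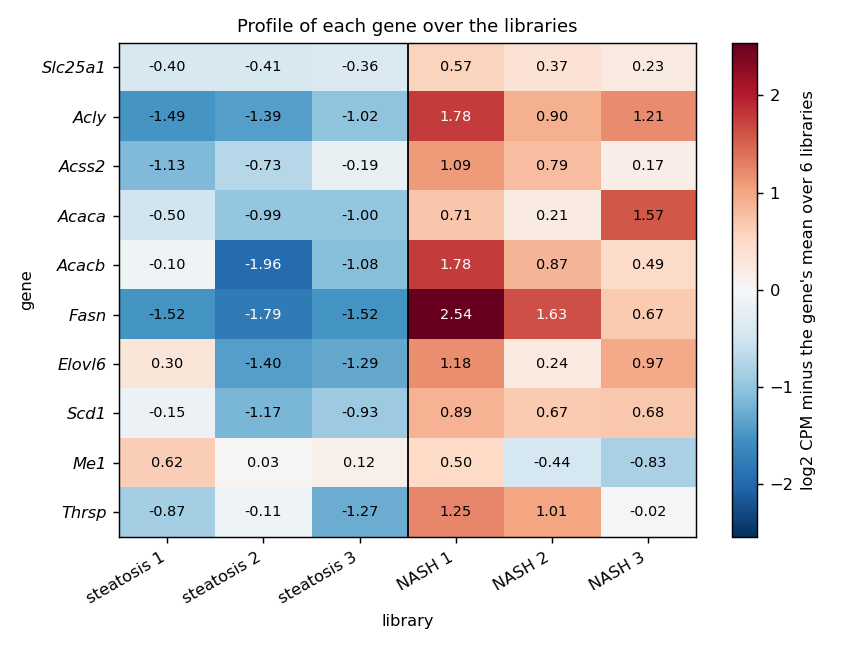
Log2 CPM of each gene minus its mean over the 6 libraries, with genes in the order of the pathway as rows and libraries as columns, red above and blue below the gene's mean. Fasn spans the widest range, from -1.79 in steatosis 2 to 2.54 in NASH 1, Acaca alone peaks in NASH 3, and Me1 is above its mean in every steatosis library.

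The NASH libraries did not show the genes at equal strength. NASH 1 was the highest NASH library for 9 of the 10 genes, all but Acaca, and NASH 3 the lowest for 6. The mean of the 10 centred profiles was 1.23 in NASH 1, 0.62 in NASH 2 and 0.51 in NASH 3, against -0.52, -0.99 and -0.85 in steatosis 1, 2 and 3. Reads of the 10 genes made up 0.223%, 0.171% and 0.172% of the counts outside mitochondrial genes and rRNA-like loci in steatosis, and 0.795%, 0.617% and 0.479% in NASH. Without Scd1, which gives most of these reads in steatosis 1, steatosis 3 and NASH 3, the shares were 0.0827%, 0.0957% and 0.0774% in steatosis and 0.457%, 0.317% and 0.201% in NASH. These shares use no TMM factor and do not overlap between the groups.

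Levels of different genes were compared as CPM per kilobase of exon, from the union of annotated exons, which understates genes with long unused exons. In steatosis Scd1 (43.9 ± 17.2) and Thrsp (34.4 ± 14.6) stood highest and did not differ beyond their spread (SD, n = 3). Slc25a1 followed at 12 ± 0.236 and Me1 at 3.04 ± 0.701. Fasn (1.55 ± 0.162), Acacb (1.37 ± 0.862), Elovl6 (1.1 ± 0.804), Acly (0.916 ± 0.165), Acss2 (0.912 ± 0.306) and Acaca (0.617 ± 0.128) formed a low group, whose neighbours in this order overlapped.

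In NASH the order changed below the top 3. Scd1 stood at 118 ± 10.3, Thrsp at 98.3 ± 39.5 and Slc25a1 at 20.7 ± 2.51 CPM per kilobase. Fasn came next at 16.5 ± 10.1, and it did not differ from Slc25a1 beyond the spread. Acly (5.78 ± 1.84) and Acacb (5.53 ± 2.67) overlapped, as did Elovl6 (2.99 ± 0.939), Acss2 (2.37 ± 0.724), Me1 (2.25 ± 1.13) and Acaca (2.09 ± 1.02). Me1 thus moved from the fourth place in steatosis to the ninth in NASH. As a share of the summed CPM per kilobase of the 10 genes, Fasn went from 1.59% ± 0.381 to 5.67% ± 2.28, Me1 from 3.05% ± 0.461 to 0.790% ± 0.218, and Scd1 from 43.5% ± 11.7 to 44.1% ± 8.08 (SD, n = 3 each).

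Ratios between genes within a library do not depend on how libraries are scaled. The ratio of Scd1 to Fasn was 38.7, 23.0 and 22.5 in steatosis and 4.73, 7.64 and 14.9 in NASH, per kilobase of exon. Every NASH value lay below the steatosis values, with a difference in log2 ratio of -1.74 (exact permutation p = 0.1, the smallest possible, 0.2 after adjustment over the 6 ratios). For Scd1 over Elovl6 the ratios were 31.2, 50.8 and 55.7 in steatosis and 34.4, 57.3 and 34.6 in NASH, which overlapped, and no difference was shown (exact permutation p = 1 after adjustment). The ratio of Fasn to Acly was 2.06, 1.59 and 1.49 in steatosis and 3.51, 3.45 and 1.42 in NASH. These ratios overlapped, and no difference was shown (difference in log2 ratio 0.61, exact permutation p = 0.4, or 0.6 after adjustment). NASH 3 stood below all steatosis libraries for this ratio while NASH 1 and NASH 2 stood above them.

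The same library stood apart for Fasn against Acaca, a pair chosen after its values were seen. The ratio was 2.14, 2.5 and 3.03 in steatosis, 15.4 and 11.6 in NASH 1 and NASH 2, and 2.33 in NASH 3, inside the steatosis range. NASH 3 also held most reads at rRNA-like loci, and whether that bears on the ratio was not tested. Steatosis 2, the other library rich in such reads, gave a ratio between those of steatosis 1 and 3.

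**Figure D3:**
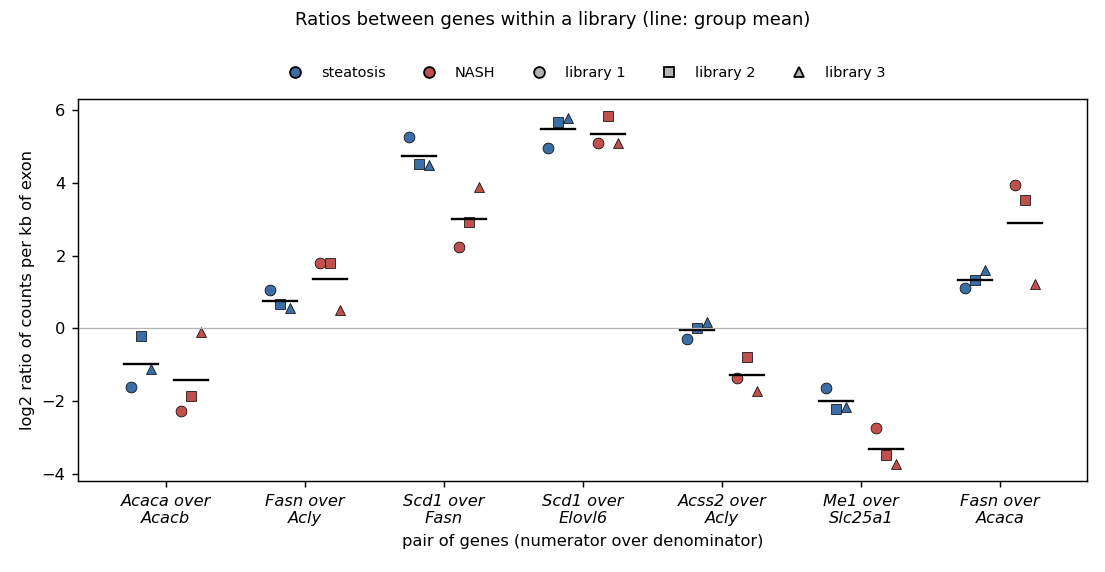
Log2 ratio of the counts per kilobase of exon of pairs of genes within each library, steatosis in blue and NASH in red, with a line at each group mean and the marker shape for the library number. Scd1 over Fasn, Acss2 over Acly and Me1 over Slc25a1 are lower in all NASH libraries, and NASH 3 lies inside or below the steatosis range for Fasn over Acaca and Fasn over Acly.

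Of 18 listed lipogenic regulators 1 rose and 0 fell, with a median log2 fold change of 0.19. The gene that rose was Insig1, which retains SREBP in the endoplasmic reticulum and is itself a target of it, from 14.4, 10.3 and 9.20 CPM to 42.4, 46.2 and 25.4 CPM (log2 fold change 1.75, standard error 0.27, adjusted p by edgeR = 0.0104). Its call was lost without steatosis 2 (adjusted p by edgeR = 0.0598). Srebf1 measured 59.0, 52.0 and 17.5 CPM in steatosis and 90.8, 89.7 and 46.8 CPM in NASH, with NASH 3 below both higher steatosis libraries. Its log2 fold change was 0.82 with a 95% interval of -0.11 to 1.75 (adjusted p by edgeR = 0.269). For Mlxipl it was -0.08 with an interval of -0.63 to 0.46 (adjusted p by edgeR = 0.879), and its sign changed with the scaling.

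Of 10 regulators of the carboxylases and of malonyl-CoA 0 passed by edgeR, with a median log2 fold change of 0.17. At an unadjusted p under 0.05 there were 3 (Mid1ip1, Prkab1 and Mlycd), and DESeq2 called 2, Mid1ip1 and Prkab1, the latter a subunit of the AMP-activated kinase that was chosen after its values were seen. Mid1ip1, the partner of Spot 14, had a log2 fold change of 1.28 (standard error 0.35, adjusted p by edgeR = 0.0617), which passed without NASH 3 (adjusted p by edgeR = 0.0363). It had 17 to 54 counts per library and shares 25.5% of its exon length with Gm14493 on the opposite strand. Mlycd, which breaks down malonyl-CoA, had one of -0.65 (standard error 0.24, adjusted p by edgeR = 0.136).

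Of 10 genes of the pentose phosphate pathway and of other NADPH supply, not all of which make NADPH themselves, 2 rose and 2 fell. Their median log2 fold change was -0.15. Pgd and Rpia, of the pentose phosphate pathway, rose by 1.18 (standard error 0.25, adjusted p by edgeR = 0.0302) and 1.34 (standard error 0.26, adjusted p by edgeR = 0.0222) on the log2 scale. Pgls, of the same pathway, fell by 0.80 (standard error 0.20, adjusted p by edgeR = 0.0481) and the mitochondrial enzyme Idh2 fell by 1.19 (standard error 0.26, adjusted p by edgeR = 0.0314). G6pdx, the entry enzyme of the pathway, had a mean of 0.994 CPM in steatosis and 1.47 CPM in NASH, and a log2 fold change of 0.57 (adjusted p by edgeR = 0.348). Pgls shares 20.6% of its exon length with Fam129c on the same strand, so its reads may be split. G6pdx shares 13.6% with Ikbkg on the opposite strand. Idh1, the cytosolic isocitrate dehydrogenase, stood at -0.22 (adjusted p by edgeR = 0.611).

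Of 13 genes of pyruvate and citrate supply, most of them mitochondrial and Mdh1 and Aco1 cytosolic, 1 rose and 2 fell by edgeR, with a median log2 fold change of -0.41. DESeq2 called 1 higher and 4 lower, adding Mdh1 and Mpc1, and at an unadjusted p under 0.05 by edgeR 1 was higher and 6 lower. At least 2465 of all 11375 genes tested passed that unadjusted rule. Mpc2, a subunit of the mitochondrial pyruvate carrier, measured 31, 17.6 and 23.2 CPM in steatosis and 6.25, 5.63 and 9.44 CPM in NASH (log2 fold change -1.76, adjusted p by edgeR = 0.0104), a call that held with each library left out in turn. Mpc1, the other subunit, named after its values were seen, had a log2 fold change of -1.26 (adjusted p by edgeR = 0.068). It shares 23.1% of its exon length with 4930506C21Rik on the opposite strand. Mdh2, the mitochondrial malate dehydrogenase, fell by 0.80 on the log2 scale (adjusted p by edgeR = 0.0337), and Pdhb, of the pyruvate dehydrogenase complex, rose by 0.79 (adjusted p by edgeR = 0.0463). The citrate synthase Cs stood at -0.15 (adjusted p by edgeR = 0.689). Its 95% interval ran from -0.59 to 0.28.

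Of 14 tested genes of glucose and fructose entry 2 rose and 1 fell by edgeR, with a median log2 fold change of 0.54. DESeq2 called 3 higher and 2 lower, and at an unadjusted p under 0.05 by edgeR 8 were higher and 3 lower. The unadjusted rule was met by at least 2465 of the 11375 genes tested. Tkfc, the triokinase of fructose breakdown, rose by 1.18 (adjusted p by edgeR = 0.0181) and Gckr by 1.01 (adjusted p by edgeR = 0.0378), and Pgk1 fell by 1.39 (adjusted p by edgeR = 0.0183). Tkfc shares 12.9% of its exon length with Cyb561a3 on the opposite strand. Pklr, the liver pyruvate kinase and a known ChREBP target, had a log2 fold change of 1.08 (adjusted p by edgeR = 0.15), which was 1.72 without steatosis 2 (adjusted p by edgeR = 0.0608) and 0.67 without NASH 1. It shares 22% of its exon length with Hcn3 on the opposite strand.

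Among 13 tested genes of other elongation and desaturation, 2 rose and 0 fell by edgeR. DESeq2 called 3 higher and 0 lower, and at an unadjusted p under 0.05 by edgeR 5 were higher and 1 lower. Those called by edgeR were Fads2, the delta-6 desaturase of polyunsaturated fatty acids (log2 fold change 0.95, standard error 0.20, adjusted p by edgeR = 0.0286), and Fads3 (3.03-fold, adjusted p by edgeR = 0.0183). Elovl5 stood at 0.74 (adjusted p by edgeR = 0.349), and steatosis 1 with 89.1 CPM was the highest of the 6 libraries. Without steatosis 1 its log2 fold change was 1.63 and passed (adjusted p by edgeR = 0.0243). Acsl3, an acyl-CoA ligase, rose by 1.35 (adjusted p by edgeR = 0.0259), the 1 call by edgeR among 6 tested genes of its list. Acsl1 of the same list measured 1160, 478 and 374 CPM in steatosis and 345, 157 and 209 CPM in NASH, all NASH libraries lying lower, with a log2 fold change of -1.50 (adjusted p by edgeR = 0.0818), and DESeq2 called it. It was named after its values were seen. The separate fatty acid synthesis system of the mitochondria had 0 of 8 tested genes called by edgeR or DESeq2, with 2 lower at an unadjusted p under 0.05 by edgeR (Cbr4 and Acsf3, chosen after their values were seen) and a median log2 fold change of -0.24. Of 4 tested paralogs of the 10 genes, Acss3, a mitochondrial acyl-CoA synthetase, fell by 1.94 on the log2 scale (adjusted p by edgeR = 0.034). Its group means were 1.24 CPM or less, and it shares 33.9% of its exon length with Ppfia2 on the opposite strand. DESeq2 called 1 of these paralogs higher (Mid1ip1) and 0 lower, and gave Acss3 no adjusted p. At an unadjusted p under 0.05 by edgeR 2 were higher and 1 lower. Scd2 measured 0.862, 0.420 and 0.594 CPM in steatosis and 1.39, 6.03 and 0.272 CPM in NASH, and its log2 fold change of 2.07 (adjusted p by edgeR = 0.146) was 0.50 without NASH 2.

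Of these 15 called genes outside the 10, only Mpc2 passed with each library left out in turn. The calls of Idh2, Pgls, Mdh2, Pdhb, Gckr, Fads2 and Acss3 were lost without any 1 of the 6 libraries. Dropping steatosis 1, 2 or 3 lost 12, 13 or 8 of the calls, and dropping NASH 1, 2 or 3 lost 11, 12 or 7. With scaling to the counts outside mitochondrial genes and rRNA-like loci, Idh2, Pgls, Mdh2 and Acss3 did not pass. Pgls was also lost with the size factors of DESeq2 and with upper-quartile factors in edgeR, and Acss3 with voom. Without steatosis 2 and NASH 3 together 13 of the 15 were lost.

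**Figure D4:**
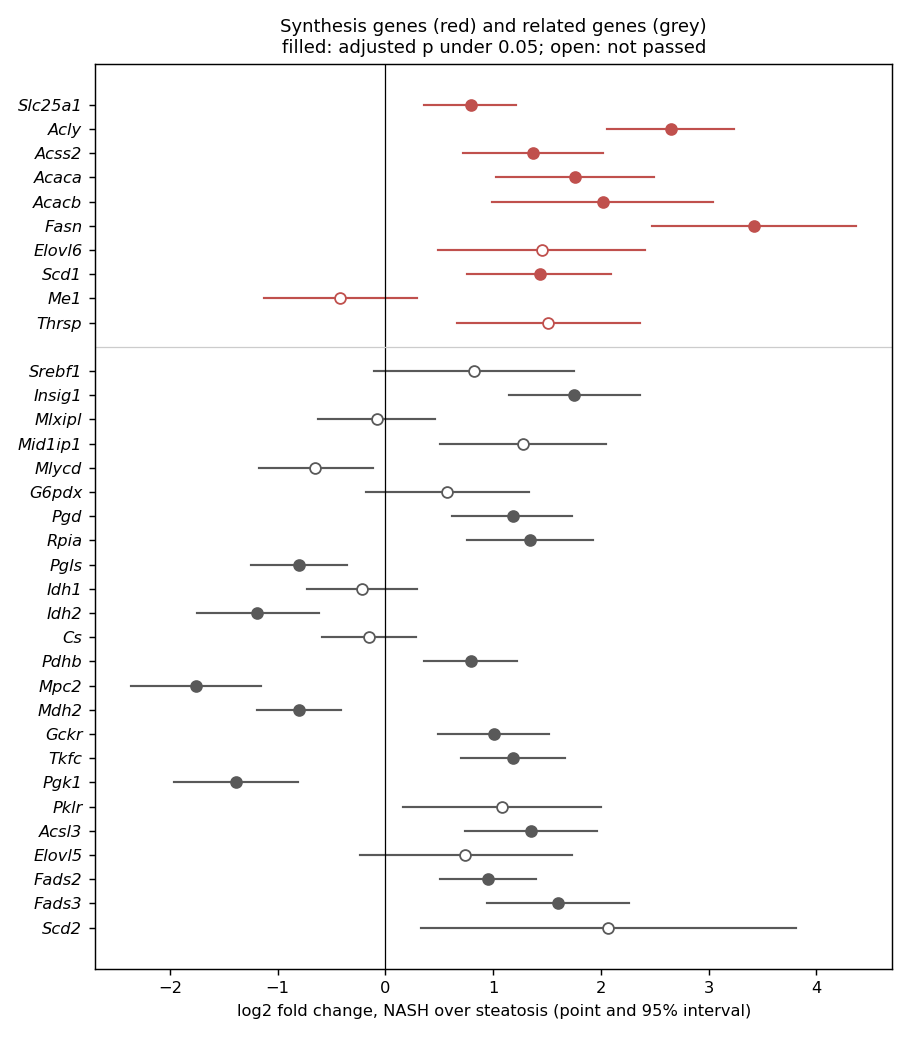
Log2 fold change of NASH over steatosis (x axis) with its 95% interval for the 10 synthesis genes (red) and for some of the related genes named in the text (grey), from the fit over all tested genes. Genes left out include Acss3, Acsl1, Mpc1, Mdh1, Cbr4 and Acsf3, which lie below 0, and Prkab1, which lies above 0. Filled points passed an adjusted p under 0.05. Of the red points 9 lie right of 0 and Me1 left of it, while grey points lie on both sides.

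Genes whose profile over the 6 libraries was closest to that of Fasn were sought by the root mean square difference in centred log2 CPM, over 8410 genes outside the list whose log2 CPM averaged 1 or more. Among the 5 nearest were Fdps, the farnesyl diphosphate synthase (0.35), the predicted gene Gm3571 (0.40) and the mevalonate enzyme Mvd (0.46). Among the 10 genes themselves the nearest to Fasn was Acly at 0.55 and the farthest Me1 at 1.88. The average profile of the 10 genes was closest to those of Tlcd1 (0.20), Lss, N4bp3 and Hmgcs1 (0.21 each) and Dhcr7 (0.22). Lss, Hmgcs1 and Dhcr7 encode enzymes of cholesterol synthesis. The 8 genes named here were higher in NASH by the same test, with a log2 fold change of 3.50 for Fdps and 3.45 for Mvd. That of Mvd was 2.60 without NASH 1 and 4.11 without steatosis 3, and the calls of Fdps, Gm3571, Tlcd1, Lss and Dhcr7 held with each library left out in turn. Those of Mvd, N4bp3 and Hmgcs1 were lost without steatosis 1 or steatosis 2, that of N4bp3 also without NASH 1, and that of Hmgcs1 also without steatosis 3, NASH 1 or NASH 3. A profile over 6 libraries that fall into 2 groups mostly records the group difference. Genes picked for their likeness to a profile that is higher in NASH tend to be called higher, so these calls are no separate result.

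**Figure D5:**
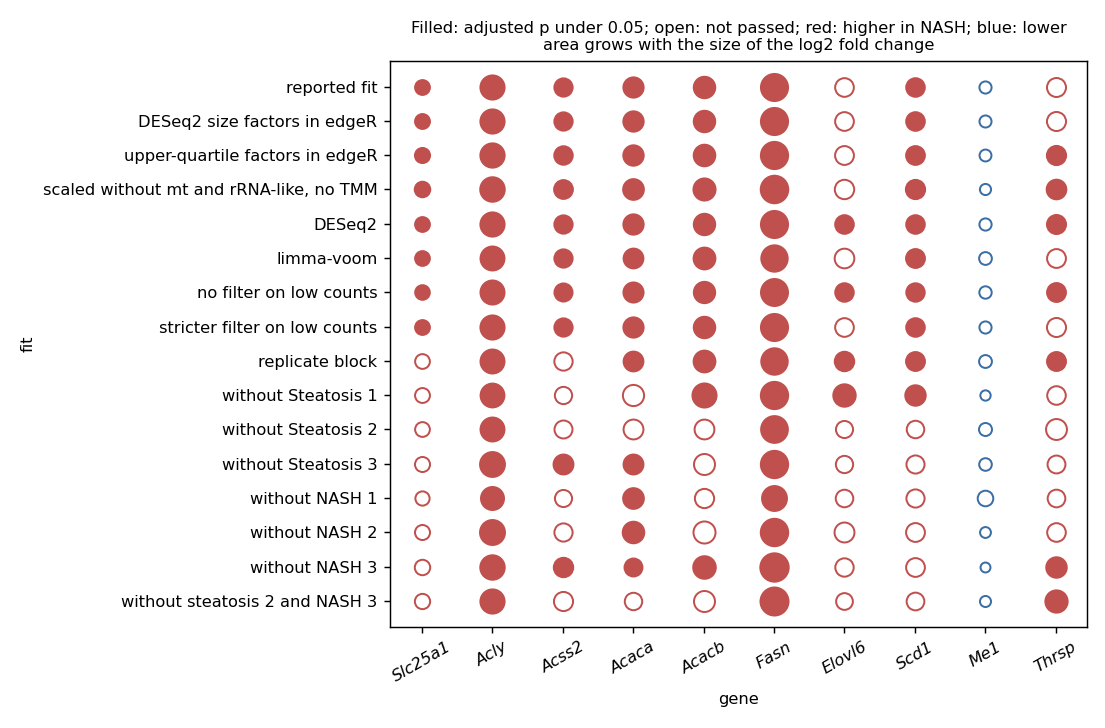
Calls of the 10 genes (columns) in the reported fit and in 15 alternative fits (rows), with filled points where the adjusted p was under 0.05, red for a higher and blue for a lower value in NASH, and area growing with the log2 fold change. Acly and Fasn are filled in every row, Me1 in none, and the other genes lose or gain the call in some rows.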

How the data were processed

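Liver RNA with poly(A) tails was turned into cDNA and read from both ends on an Illumina machine, per the labels' protocols. The authors deposited raw counts of reads per Ensembl gene, whole numbers that were not normalized. TopHat2, HTSeq and GRCm38 (mm10) are named in the submitters' processing notes, and for the annotation release, strand setting and treatment of shared reads the sources used here give nothing. Symbols were found for 37607 of 39179 identifiers, and lengths and positions are from GENCODE on GRCm38. In R 4.3.3, genes passing the default filter of edgeR 4.0.16 were tested by its quasi-likelihood test after TMM scaling, with Benjamini-Hochberg adjustment over all 11375 tested genes. The SE was taken from the log2 fold change and the F statistic. Log2 CPM used a prior count of 2. Alternatives included DESeq2 1.42.0 and voom of limma 3.58.1. The test was tried on simulated counts with 195 changed genes. At the same threshold it called 18.2% of the 2-fold and 92.7% of the 4-fold changes. Of its calls 8.55% were false.

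The genes, the lists and the tests were chosen with earlier results of these data known. The text names the 10 genes, a fixed set of related genes whatever their result, up to 4 called genes with the smallest p of each other list, and the 5 genes nearest in profile to Fasn and to the average, except 3 genes that are not reported here. No pair of libraries within a group looked like a duplicate, the lowest chi-square of their counts being 34 per degree of freedom.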

Additional observations from a re-analysis of the deposited data

How the results depend on the processing

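All 15 alternatives left 9 of the 10 genes with a log2 fold change above 0 and Me1 below it. The number of the 10 that passed was 7 in the reported fit, 7 to 9 under the other scalings, filters and tests run, 2 to 6 with each library left out in turn (2, 4, 3 and 3 without steatosis 2, steatosis 3, NASH 1 and NASH 2) and 3 without steatosis 2 and NASH 3. Acly and Fasn passed in all 15. A fit with fewer libraries has fewer residual degrees of freedom by construction, and where a group keeps 2 libraries they are assumed to vary like the rest. Over all genes, 548 were called in the reported fit, 851 by DESeq2 and 1447 with no filter on low counts, 114 to 468 with 1 library left out (116, 114 and 468 when a steatosis library was dropped, in the order 1 to 3, and 181, 201 and 226 for NASH), and 36 without steatosis 2 and NASH 3. The cause was not tested. Scaled to counts outside mitochondrial genes and rRNA-like loci, the split moved from 169 higher and 379 lower to 179 and 222, and the median change over all tested genes from 0.01 to 0.12 (log2). The log2 fold change of Mlxipl, -0.08, was 0.01 with that scaling, and with each library left out it ran from -0.19 without steatosis 2 to 0.10 without steatosis 3, with 0.03 without NASH 2.

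Replicate numbers were not shown to pair mice, since deviations of same-numbered libraries from their group means correlated at 0.03, -0.01 and 0.07 and not each library correlated best with its own number. With the replicate number as a block, 466 genes were called and again 7 of the 10, with Slc25a1 and Acss2 lost (edgeR adjusted p = 0.0711 and 0.0518) and Elovl6 and Thrsp gained (0.0191 and 0.0249). Of the 15 called genes of the other lists, the block lost 5 (Pgls, Mdh2, Pdhb, Gckr and Acss3). With a library left out, the difference in log2 ratio kept its sign for 5 of the 6 planned ratios, of which Acaca over Acacb (-0.44) ran from -1.09 without NASH 3 to -0.01 without NASH 1, and for Scd1 over Elovl6 it ran from -0.38 to 0.04, around -0.12, and was 0.09 without steatosis 2 and NASH 3. Among the 10 genes Me1 had the lowest count in a library, 59 in NASH 3, and the bearing of depth on its result was not tested.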

Other observations

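Library order within a group differed from gene to gene and did not follow the steps of the route, as values with no test. In NASH, Slc25a1, Acss2, Acacb, Fasn, Me1 and Thrsp were highest in NASH 1 and lowest in NASH 3, Acly, Elovl6 and Scd1 were highest in NASH 1 and lowest in NASH 2, and Acaca was highest in NASH 3 and lowest in NASH 2. The place of Scd1 rests on 546 CPM in NASH 2 against 550 CPM in NASH 3. Steatosis 1 was the highest steatosis library for 5 genes, Acaca, Acacb, Elovl6, Scd1 and Me1, and at the same time the lowest of all 6 libraries for Acly and Acss2 (4.19 and 6.53 CPM).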
